A study of Homo sapiens with 8 samples.

Results

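Vehicle-treated Ishikawa cells, the baseline state of a study of hormone response, are described here from 2 RNA sequencing libraries of 8 in the series, chosen because their labels give DMSO as the treatment. Ishikawa is an established line of human endometrial adenocarcinoma. Every culture was grown in phenol red-free RPMI with 10% charcoal/dextran-stripped serum, which is low in steroid hormones. The other groups, used only to ask whether a baseline level held, received dexamethasone at 100 nM (a synthetic glucocorticoid), estradiol at 10 nM (an estrogen), or both, with 2 libraries each. The labels of the libraries give 8 hr of treatment while the protocol they share gives 1 hr, and which applies was not settled. Separate cultures are not stated for the 2 libraries of any group, so p-values here reflect library-to-library spread alone, perhaps of technical origin. RNA came from whole cultures, in which fewer cells of a type and less RNA per cell cannot be told apart. All libraries come from a single cell line, so nothing here describes variation among endometrial tumours.

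The endometrial epithelium arises from the Müllerian duct and keeps transcription factors of that origin, such as PAX8, SOX17 and the HOXA genes. Steroid hormones act on it through nuclear receptors: ligand-bound estrogen, progesterone, glucocorticoid and mineralocorticoid receptors bind DNA and recruit coregulators, while chaperones of the heat shock protein 90 family hold several of them in a form that can bind ligand. Removing hormones from the medium leaves the receptors largely without ligand, so the vehicle group is the reference against which hormone effects are read.

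Levels are given as CPM, the counts of a gene scaled to the TMM-normalised size of its library, which is not corrected for gene length. Values per kb of exon length are given where levels of different genes are ranked, and bands of CPM are used only to sort genes by their counts. The DMSO libraries held 18768433 and 21016257 counts, and 1 count was worth 0.0525 and 0.0486 CPM. A gene was called detected at 1 CPM or more in both libraries, and 0 counts in a library allows a level of up to 0.157 CPM in replicate 1 and 0.146 CPM in replicate 2, which covers counting error only. Of 26364 genes in the table, 12540 (47.6%) were detected, 8203 had 0 counts in both libraries, and 5621 had some counts without reaching the threshold. Of protein-coding genes 62.7% were detected, which is the share to set beside each count of list members below. Among the detected genes the median was 33.0 CPM, 3019 lay under 10 CPM, 7160 between 10 and 100 CPM, 2285 between 100 and 1000 CPM, and 76 at 1000 CPM or more. The replicates differed by more than sampling noise (chi-square per degree of freedom 17.2), with a median coefficient of variation of 8.00% for detected genes. Of 9521 genes with a mean of 10 CPM or more, 16 differed by more than 2-fold between the replicates.

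A zero in this table does not always mean an unexpressed gene. Along chromosome 6, between GABBR1 and ZBTB9, the stretch that holds the HLA genes, 105 of 140 protein-coding genes had 0 counts in both DMSO libraries and 98 had 0 counts in all 8 libraries. Those at 0 in both DMSO libraries took in genes that every cell uses. They were RPS18 (a ribosomal protein), DDX39B (an RNA helicase), RING1 (a Polycomb subunit), BAG6 (a chaperone) and LSM2 (a splicing factor), among others. Over all 8 libraries RPS18 had 131 counts, while DDX39B, RING1, BAG6 and LSM2 had 0. Detected genes made up 10% of the stretch, against 42% of the 50 coding genes before it and 64% of the 50 after it. The border at GABBR1 was a choice. Every coding gene just before it, from GPX6 to OR2H2, also had 0 counts in both libraries. Many of these are olfactory receptors, but TRIM27 and ZNF311 are among them, and where the gap begins was not tested. BAK1, an inducer of apoptosis just past its end, had 993 and 1441 counts. A stretch of 12 genes on chromosome 4 from YTHDC1 to UGT2A2 was also at 0 in all 8 libraries, as was RPL21, another ribosomal protein. The cause was not tested, and how reads with several matching places were counted is not given in the sources used here. Members of the gene lists in those stretches are therefore named as listed at 0, and nothing is read from their level. They remain in the counts of lists, classes and promoters below.

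**Figure D1:**
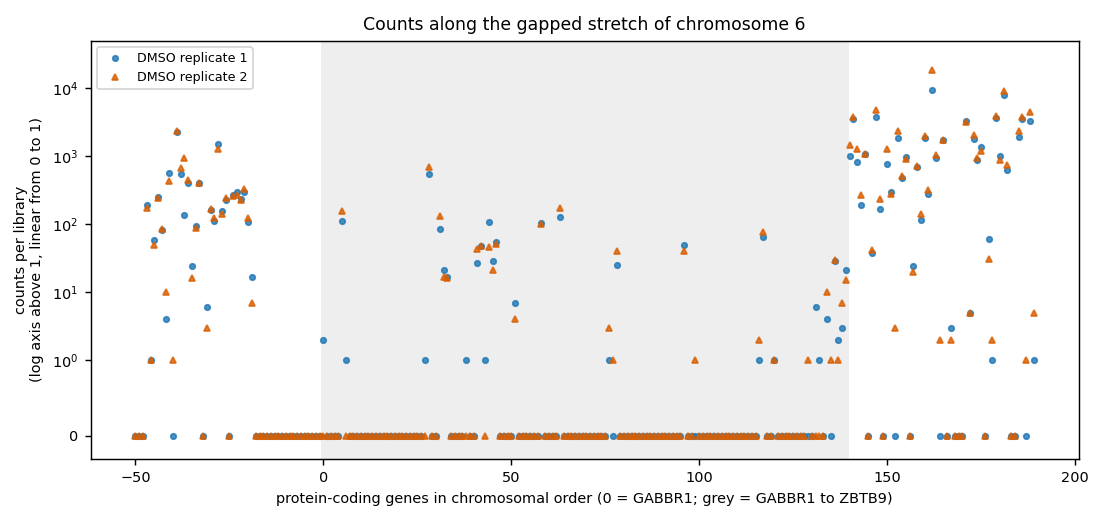
Counts in both DMSO libraries (y axis, log scale above 1) of protein-coding genes in their order on chromosome 6 (x axis, gene number from GABBR1), with GABBR1 to ZBTB9 in grey. Within the grey stretch 105 of 140 genes sit at 0 in both libraries, while the 50 genes to its right include 32 that were detected.

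The sequence at the gene start differed between genes of different baseline levels. The 250 bases before the RefSeq start of 5 genes (GRCh38.p14) are printed 5′ to 3′ on the gene's own strand, with CG pairs and the letters TATAAA in capitals. They were chosen after their levels were seen, to show each kind of start: MSX1, a homeobox factor at 530 and 584 CPM, upstream of its start at chr4:4859415-4859664 (plus strand); NR3C1, the glucocorticoid receptor at 63.4 and 66.4 CPM, at chr5:143404483-143404732 (minus strand); RPLP0, a ribosomal protein at 3033 and 4124 CPM, at chr12:120201112-120201361 (minus strand); CYP3A4, a drug-metabolising enzyme of the liver with 0 counts in both libraries, at chr7:99784185-99784434 (minus strand); and ESR1, estrogen receptor alpha at 181 and 157 CPM, at chr6:151656422-151656671 (plus strand).
MSX1: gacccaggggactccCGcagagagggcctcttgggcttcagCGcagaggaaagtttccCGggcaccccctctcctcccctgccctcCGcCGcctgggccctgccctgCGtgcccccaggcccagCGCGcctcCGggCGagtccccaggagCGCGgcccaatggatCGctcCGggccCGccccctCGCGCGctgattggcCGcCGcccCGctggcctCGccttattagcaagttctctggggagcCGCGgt
NR3C1: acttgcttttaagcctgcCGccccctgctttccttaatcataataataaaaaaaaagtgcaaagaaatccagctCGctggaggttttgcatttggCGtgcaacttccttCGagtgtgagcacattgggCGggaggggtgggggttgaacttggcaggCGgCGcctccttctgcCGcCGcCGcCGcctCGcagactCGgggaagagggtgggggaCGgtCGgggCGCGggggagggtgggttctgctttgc
RPLP0: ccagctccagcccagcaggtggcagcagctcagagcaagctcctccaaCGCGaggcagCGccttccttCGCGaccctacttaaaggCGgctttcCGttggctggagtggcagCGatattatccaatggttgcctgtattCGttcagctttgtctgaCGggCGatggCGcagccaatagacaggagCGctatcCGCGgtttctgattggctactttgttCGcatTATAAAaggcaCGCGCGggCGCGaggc
CYP3A4: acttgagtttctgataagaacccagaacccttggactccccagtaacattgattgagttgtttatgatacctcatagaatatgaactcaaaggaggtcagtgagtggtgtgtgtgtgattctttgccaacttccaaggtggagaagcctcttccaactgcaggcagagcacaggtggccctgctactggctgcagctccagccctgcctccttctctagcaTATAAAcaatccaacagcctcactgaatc
ESR1: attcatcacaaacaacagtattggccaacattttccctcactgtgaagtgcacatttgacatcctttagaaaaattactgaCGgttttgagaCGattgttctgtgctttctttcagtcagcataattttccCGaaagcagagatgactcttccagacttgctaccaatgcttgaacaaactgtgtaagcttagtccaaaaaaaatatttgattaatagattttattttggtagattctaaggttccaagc
The stretch of MSX1 holds 24 CG pairs and that of NR3C1 17, with no TATAAA close to the start. That of RPLP0 holds 21 CG pairs together with TATAAA at position -27 from the start. That of CYP3A4 holds 0 CG pairs and TATAAA at position -29. ESR1 departs from the pattern, with 3 CG pairs before a gene that was above 150 CPM in each library. RefSeq lists a single start here, and the start used in these cells was not measured.

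Over 15200 protein-coding genes with a RefSeq promoter of 300 bases (250 before the start and 50 after), the median number of CG pairs rose from 5 in genes with 0 counts to 12 in genes with some counts that were not detected, and to 23 in detected genes under 10 CPM. It was 27 between 10 and 100 CPM, 29 between 100 and 1000 CPM, and 27 at 1000 CPM or more, beside 22 over all of these promoters. At least 15 CG pairs were found in 24.0% of the promoters of genes with 0 counts and in 90.6% of those between 100 and 1000 CPM, beside 66.9% of all. TATAAA, read on the gene's strand and starting 40 to 20 bases before the start, followed another order. It was in 9.74% of the promoters with 0 counts, in 0.898% of those between 10 and 100 CPM, and in 11.5% (7 of 61) of those at 1000 CPM or more, beside 3.63% of all. On either strand and anywhere in the 300 bases, TATAAA was in 9.42% of all promoters. The median gene length also rose along the bands, from 2018 bases in genes with 0 counts to 4370 between 100 and 1000 CPM, and was 2929 at 1000 CPM or more. The part of length in the order of the bands was not tested. These are descriptions of the letters in the window, and genes in the same family share sequence, so no test is given.

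**Figure D2:**
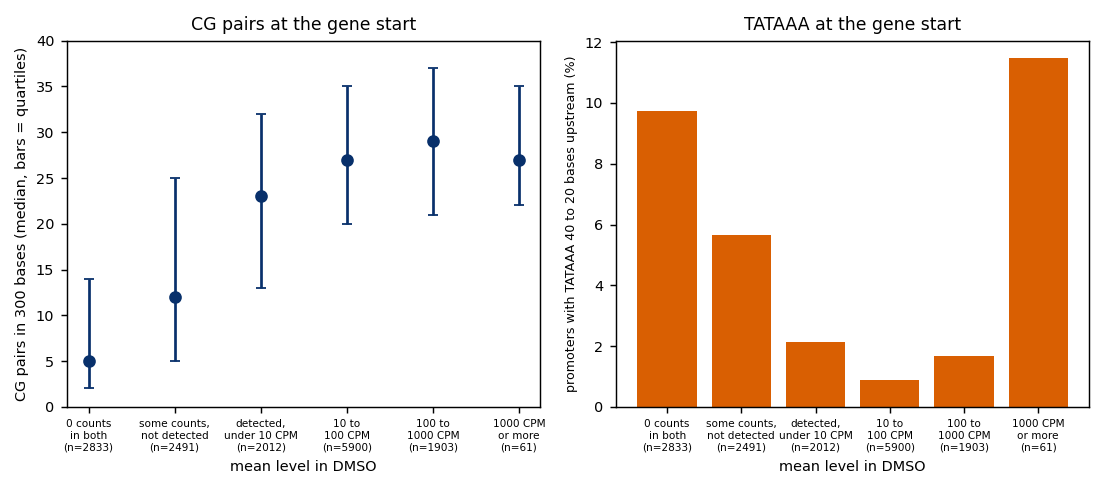
Left, the median number of CG pairs in 300 bases around the gene start (points; bars span the quartiles) by mean level in DMSO. Right, the percent of promoters with TATAAA 40 to 20 bases before the start, which is 9.74% for genes with 0 counts, 0.898% between 10 and 100 CPM and 11.5% at 1000 CPM or more.

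The steroid receptors were detected in 8 of 9 cases, and their levels differed widely per kb. Among the nuclear receptors, ESR1 was at 14.0 and 12.2 CPM per kb. NR3C1 followed at 7.74 and 8.11, and NR3C2, the mineralocorticoid receptor, at 3.58 and 3.74 CPM per kb. Progesterone receptor PGR was far below, at 0.298 and 0.184 CPM per kb, which is 4.09 and 2.53 CPM. ESR2, estrogen receptor beta, was not detected, at 0.525 and 0.583 CPM. The membrane-associated progesterone receptor components PGRMC1 (131 and 149 CPM per kb) and PGRMC2 (37.3 and 35.9) stood above all of these, and GPER1, the G protein-coupled estrogen receptor, lay between NR3C2 and PGR at 1.12 and 1.25 CPM per kb. No neighbours among the 8 receptors named here overlapped in the 2 libraries, and their order was the same with the median transcript length in place of all exons.

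Whether these levels held once hormone was added was asked with edgeR's quasi-likelihood F test of any hormone group against DMSO over 14201 genes, with Benjamini-Hochberg adjustment. It called 630 genes, 4.44% of those tested. Of the 9 steroid receptors 3 were called: PGR, ESR1 and GPER1. PGR, a gene that estrogen receptors induce, averaged 36.4 CPM with estradiol and 36.9 with both hormones, against 5.69 with dexamethasone (adjusted p = 0.000602). The dexamethasone libraries and the DMSO libraries overlapped at PGR, with a lowest treated value of 2.47 CPM. ESR1 averaged 123 CPM with estradiol, 149 with both hormones and 192 with dexamethasone, against 181 and 157 in the DMSO libraries (adjusted p = 0.0149). GPER1 averaged 7.97 CPM with both hormones (adjusted p = 0.0211). That value is not corrected for length, so it cannot be set beside the DMSO levels of GPER1 per kb above. The ESR1 call was lost without either estradiol library (adjusted p = 0.0875 and 0.0993), and the GPER1 call without estradiol replicate 1 (0.0591), combination replicate 1 (0.0843) or the combination library of no clear number (0.101). NR3C1 ranged from 58.3 to 65.5 CPM in the 6 hormone libraries, against 63.4 and 66.4 in DMSO, and was not called (adjusted p = 0.815).

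**Figure D3:**
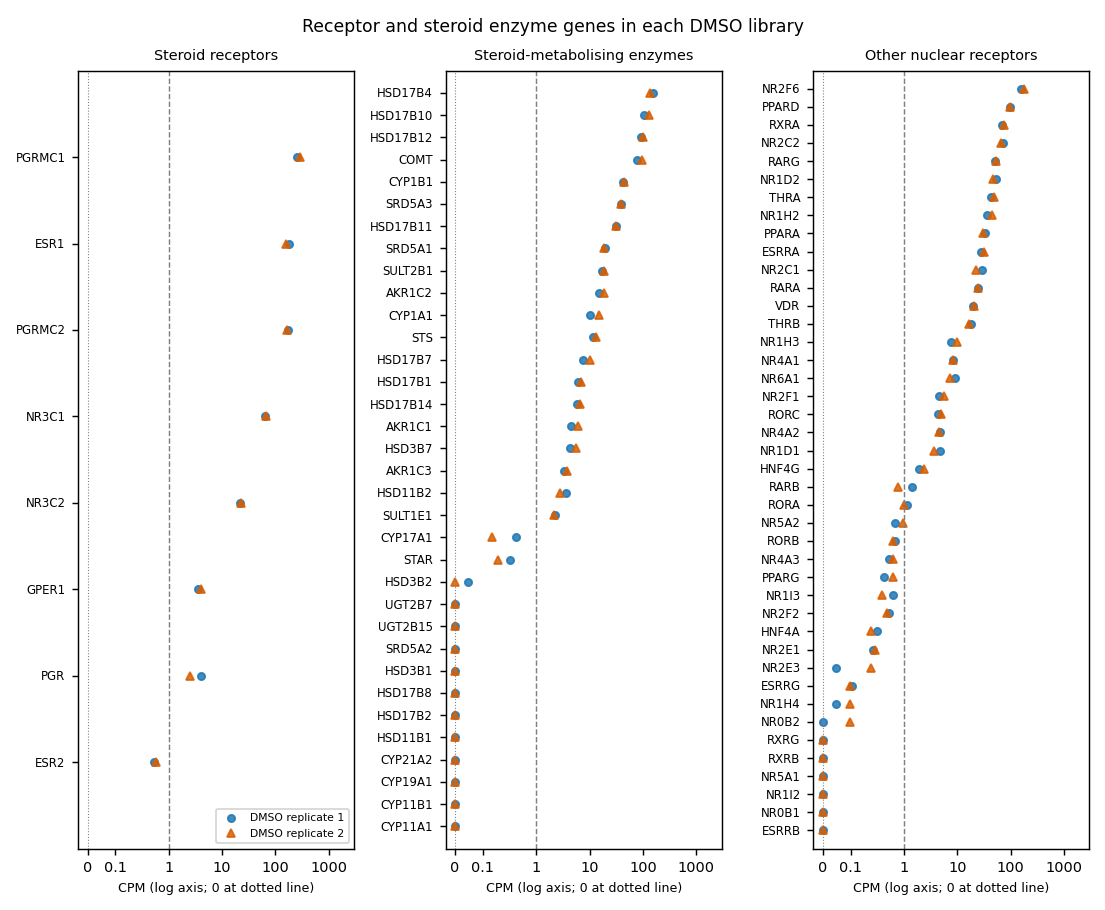
CPM (log axis, with 0 at the dotted line and the detection threshold dashed) of 8 steroid receptors, steroid-metabolising enzymes and other nuclear receptors in DMSO replicate 1 (circles) and 2 (triangles). ESR2 is the steroid receptor left of the threshold, and 11 of 34 enzymes sit at 0 in both libraries, 4 of them in the stretches listed at 0.

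Every listed chaperone and coregulator of the receptors was detected. All 10 receptor chaperones were detected, among them HSPA8 (2846 and 2816 CPM) and HSP90AA1 (2790 and 2246 CPM), which fold the receptors, and PTGES3 (937 and 940 CPM), the p23 co-chaperone. FKBP5, which restrains the glucocorticoid receptor, was at 92.1 and 84.8 CPM, and FKBP4, its counterpart that favours it, at 428 and 433 CPM. Per kb that was 8.32 for FKBP5 and 114 for FKBP4. All 18 nuclear receptor coregulators were detected. They included the coactivator NCOA4 (276 and 270 CPM), the acetyltransferases CREBBP (262 and 248) and EP300 (179 and 188), and the corepressor NCOR1 (245 and 186). PPARGC1A, a coactivator of mitochondrial genes, was at 4.15 and 3.31 CPM. The same F test called 4 of the 18 (22.2%), beside 4.44% of all tested genes, and that count was also 4 in DESeq2 and limma-voom. Of these, PPARGC1A averaged 11.3 CPM with dexamethasone and 1.99 with estradiol (adjusted p = 0.000158). NCOA4 averaged 444 CPM with estradiol and 309 with dexamethasone (adjusted p = 0.00115).

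Other nuclear receptors were detected in 23 of 42 cases. NR2F6, an orphan receptor of the COUP family, was at 156 and 178 CPM, PPARD (a lipid sensor) at 98.5 and 95.7, and RXRA, the shared partner of many receptors, at 69.1 and 75.7. The retinoic acid receptors RARG (51.9 and 53.3 CPM) and RARA (24.1 and 24.0), thyroid hormone receptor THRA (43.1 and 47.9) and vitamin D receptor VDR (19.7 and 20.4) were all detected. NR2F2, a regulator of endometrial stroma, was at 0.525 and 0.486 CPM, and PPARG, the fat cell regulator, at 0.420 and 0.632. NR5A1, which drives steroid production in gonads and adrenals, and NR1I2, the pregnane sensor, had 0 counts, while RXRB lies in the chromosome 6 stretch and was listed at 0. VDR was called in the F test, with 44.1 CPM on average with dexamethasone (adjusted p = 0.000158), as was the clock repressor NR1D2, at 52.9 and 46.3 CPM in DMSO and 26.2 with dexamethasone (adjusted p = 0.00534).

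Among genes that make steroids, CYP11A1, CYP19A1 and STAR had few or no counts, while genes that interconvert steroids were detected only in part. The detected share of the whole list was 58.8%, close to the 62.7% of all protein-coding genes. Of 34 steroid-metabolising enzymes and carriers, 20 were detected and 11 had 0 counts, of which HSD17B8, CYP21A2, UGT2B7 and UGT2B15 lie in the stretches listed at 0. CYP11A1, which cuts the cholesterol side chain, CYP19A1, the aromatase that makes estrogens, and HSD11B1, which regenerates cortisol, had 0 counts in each library. STAR, the cholesterol carrier, was at 0.315 and 0.194 CPM. HSD17B2, which inactivates estradiol, was also at 0. HSD17B4 (152 and 133 CPM), HSD17B10 (103 and 129) and HSD17B12 (91.8 and 100) are dehydrogenases with broad substrates. HSD17B1, which forms estradiol from estrone, was at 6.14 and 6.81 CPM, STS, which frees steroids from sulfate, at 11.5 and 13.0, and SULT1E1, which sulfates estrogens, at 2.20 and 2.19. HSD11B2, which inactivates cortisol, was at 3.57 and 2.77 CPM in DMSO, and averaged 9.99 with estradiol and 12.4 with both hormones (adjusted p = 0.00503). CYP1A1, an estrogen-oxidising enzyme, was at 9.97 and 14.7 CPM in DMSO. It averaged 7.95 CPM with dexamethasone, 2.79 with estradiol and 2.01 with both hormones (adjusted p = 0.00110). The highest of the 6 hormone libraries, at 9.93 CPM, was close to DMSO replicate 1.

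Part of the classical hormone targets were detected without added hormone. Of 20 classical glucocorticoid-induced genes 15 were detected, among them DDIT4 (443 and 462 CPM), an inhibitor of growth signalling, SCNN1A (89.0 and 87.0), a sodium channel subunit, and NFKBIA (48.3 and 51.6), an inhibitor of NF-kappaB. SGK1, a kinase of salt transport, was at 5.77 and 5.83 CPM, and DUSP1, a phosphatase of MAP kinases, at 3.15 and 3.50. TAT, a liver enzyme, and ZBTB16, a zinc finger factor, had 0 counts. The F test called 12 of 16 tested (75%), beside 4.44% of all tested genes. Of 20 classical estrogen-induced genes 12 (60%) were detected, a share close to the 62.7% of all protein-coding genes, so nothing about estrogen targets is read from it. CTSD, a lysosomal protease, was at 311 and 386 CPM, XBP1, a stress-response factor, at 182 and 208, and NRIP1, a corepressor, at 48.1 and 42.0. TFF1 and TFF3, the trefoil peptides known as estrogen targets in breast cells, had 0 counts, as did SERPINA3. AREG, a growth factor, had 1 count in all. The F test called 7 of 14 tested (50%). Both lists were compiled from knowledge of other cells, with results of these data known, so neither count called is a test of hormone response.

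Factors of the Müllerian tract were detected in part. Of 27 Müllerian and endometrial factors 15 were detected and 5 had 0 counts. PAX8, a factor of Müllerian and thyroid epithelium, was at 252 and 238 CPM, EMX2, a homeobox factor of the urogenital tract, at 145 and 133, and SOX17, a regulator of endometrial glands, at 59.6 and 68.9. HOXA10 (24.9 and 28.2 CPM), HOXA11 (4.88 and 4.62) and HOXA13 (7.61 and 8.27), which pattern the reproductive tract, were detected, while HOXA9 had 1 count. FOXA2, the factor of endometrial glands, had 0 counts, as had MSX2, the paralog of MSX1, and the kidney factor PAX2. GATA2, a partner of the progesterone receptor, was at 19.2 and 17.5 CPM, and FOXA1, which opens chromatin for estrogen receptors, at 13.8 and 14.8. The F test called 1 of 18 tested, SOX17, which averaged 110, 87.1 and 126 CPM with dexamethasone, estradiol and both (adjusted p = 0.00170), and each hormone library, at 80.2 CPM or more, lay above both DMSO libraries. Another 4 had an unadjusted p under 0.05, and the count was 2 in DESeq2 and 2 in edgeR with no filter on low counts. As 5.56% of those tested, 1 of 18 lies near the 4.44% of all tested genes, so nothing about the class is read from it.

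**Figure D4:**
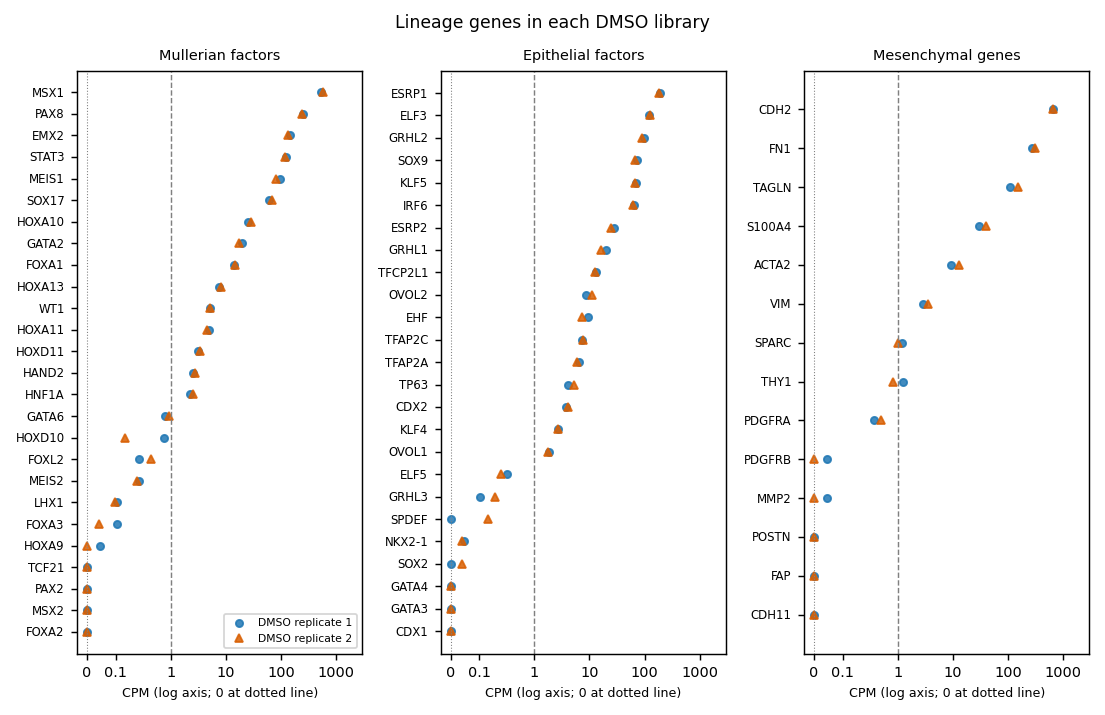
CPM (log axis, with 0 at the dotted line and the detection threshold dashed) of 26 Müllerian factors, epithelial factors and mesenchymal genes in DMSO replicate 1 (circles) and 2 (triangles). FOXA2 sits at 0 in both libraries, as do MSX2, PAX2 and TCF21, and the points of both libraries lie close together for most detected genes.

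Epithelial genes were present together with several genes usually listed as mesenchymal. Of 27 junction and adhesion genes 23 were detected, 14 of them at 100 CPM or more. CDH1, the epithelial cadherin, was at 543 and 564 CPM, EPCAM, a surface marker of epithelia, at 337 and 349, and the desmosome gene DSP at 546 and 509. Epithelial transcription factors were detected in 17 of 25 cases, with the splicing regulator ESRP1 at 188 and 187 CPM, ELF3 at 120 and 127 and the grainyhead factor GRHL2 at 98.2 and 88.3. GATA3, a factor of breast and trophoblast, GATA4 and the intestinal CDX1 had 0 counts. CDH2, neural cadherin, was at 642 and 649 CPM, which per kb is 145 beside 111 for CDH1. FN1, fibronectin, was at 273 and 304 CPM, and TAGLN, an actin-binding protein, at 107 and 153. VIM, the intermediate filament of mesenchymal cells, was at 2.89 and 3.55 CPM, or 1.72 CPM per kb, and SPARC, THY1 and PDGFRA had at most 1.26 CPM. The transition factors ZEB2, PRRX1 and FOXC2 had 0 counts and SNAI2 had 1, while TWIST1 was at 11.1 and 11.2 CPM and TCF4 at 37.6 and 36.8. No tested mesenchymal gene (0 of 9) and no tested transition factor (0 of 6) was called by edgeR, DESeq2 or limma-voom, and 0 of either had an unadjusted p under 0.05. Only 4.44% of all tested genes were called in edgeR, so 0 among so few genes says little about them.

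The detected keratins included those of simple epithelia and a basal member. Of 43 keratins 9 were detected and 22 had 0 counts. KRT8 (1237 and 1595 CPM), KRT18 (660 and 807) and KRT19 (223 and 275), the keratins of simple epithelia, gave 309, 365 and 179 CPM per kb. With the median transcript length KRT8 was at 753 CPM per kb, so its level per kb depends on the length used. KRT7, common in the female tract, was at 10.5 and 13.9 CPM, and KRT20, of gut epithelium, was not detected. KRT5, a basal keratin, was at 83.0 and 98.8 CPM, while its usual partner KRT14 had 0 counts in replicate 1 and 0.0972 CPM in replicate 2. TP63, the master factor of squamous cells, was at 4.15 and 5.25 CPM, and 6 of 12 squamous genes, involucrin (IVL) and desmoglein DSG3 among them, had 0 counts. KRT5 was called in the F test, with an average of 191 CPM with dexamethasone and 85.8 with estradiol (adjusted p = 0.000547).

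Products of differentiated endometrium were mostly low. Of 30 mucins and secretory genes 13 were detected, such as the protease inhibitor SLPI (87.9 and 124 CPM), the peroxidase GPX3 (85.3 and 111), WFDC2 (35.5 and 55.7), which encodes the tumour marker HE4, and MUC16 (24.6 and 36.5), which carries CA125. PAEP, the glycodelin of the secretory phase, and OLFM4, of the proliferative phase, had 0 counts. MUC1 was at 5.77 and 6.56 CPM. Of 15 genes of ciliated cells 5 were detected. FOXJ1, the master factor of motile cilia, was at 18.7 and 22.3 CPM, while the ciliary motor genes DNAI1 and DNAH9 had at most 0.105 CPM. FOXJ1 was called, with an average of 37.0 CPM with dexamethasone against 15.6 with estradiol (adjusted p = 0.000633). Of 10 decidual stromal genes 4 were detected, and the decidual hormones PRL and IGFBP1 had 0 counts and at most 0.194 CPM, respectively. The placental-type alkaline phosphatase ALPPL2 was at 9.50 and 7.44 CPM. It averaged 45.4 CPM with estradiol and 15.5 with dexamethasone (adjusted p = 0.00472). Its near copies ALPP and ALPI share sequence with it, so their counts are uncertain.

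Markers of other lineages were sparse. In each of 5 panels only 1 or 2 genes were detected: CPS1 of 13 hepatocyte genes, CDX2 of 12 intestinal genes, TMPRSS2 of 15 genes of breast, prostate, lung, thyroid and kidney, ACTA1 and TTN of 10 muscle genes, and KRT5 and TP63 of the squamous genes. ALB, APOB and TTR, abundant liver products, had 0 counts, as did KLK3 (prostate), SFTPC (lung), TG (thyroid), MYOD1 (muscle) and SI (intestine). ACTA1 (26.2 and 32.7 CPM) resembles ACTB closely, so its counts are uncertain. The neural panel held more, with 6 of 16 detected. MAP2, a microtubule protein of neurons, was at 79.7 and 74.0 CPM, TUBB3, a neuronal tubulin, at 22.8 and 25.8, and PAX6, an eye and brain factor, at 20.9 and 19.8. The neuronal factor NEUROD1 and the neurofilament NEFL had 0 counts. MAP2 was called, averaging 59.8, 43.4 and 50.8 CPM with dexamethasone, estradiol and both (adjusted p = 0.00871).

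Genes of non-epithelial cell types that a culture might hold were mostly near 0, apart from 2 collagen genes. The 17 leukocyte markers summed to 4.57 and 4.72 CPM, with CD4 and CD68 just above the threshold, the pan-leukocyte gene PTPRC at 1 count in each library and CD3D, CD3E and MS4A1 at 0. Of 10 endothelial markers 2 were detected, ESAM (6.04 and 6.90 CPM) and VWF (2.20 and 1.75), and PECAM1, EMCN and TEK were at 0. Of 10 fibroblast markers 3 were detected, and their sum of 158 and 202 CPM was mostly COL1A1, at 142 and 185 CPM, followed by COL3A1, another fibrillar collagen, at 11.9 and 13.6 CPM. COL1A1 and COL1A2 encode chains of the same collagen, yet COL1A2 was at 1.47 and 1.17 CPM, or 0.243 CPM per kb beside 24.4 for COL1A1. The fibroblast-defining DCN and FAP had 0 counts, and PDGFRB had 1 count.

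Growth factor receptors and their ligands were each detected in part. Of 51 receptor tyrosine kinases 30 (58.8%) were detected, a share close to the 62.7% of all protein-coding genes, so nothing about the class is read from it. ERBB2 (187 and 204 CPM) and ERBB3 (163 and 165), of the epidermal growth factor receptor family, were above 100 CPM, EGFR was at 34.7 and 36.2, and ERBB4 had at most 0.157 CPM. FGFR2 was at 96.7 and 93.4 CPM, IGF1R at 16.7 and 15.3, and INSR, the insulin receptor, at 47.2 and 51.3. Of 31 growth factor ligands 16 were detected, among them TGFA (247 and 184 CPM), a ligand of EGFR, PDGFC (113 and 112) and FGF18 (101 and 100). IGF1 and IGF2 had at most 0.292 CPM, and HGF, FGF10, EREG and NRG3 had 0 counts. FGFR2 averaged 86.3, 43.1 and 47.4 CPM with dexamethasone, estradiol and both (adjusted p = 0.000182), and the treated library with most of it, at 93.8 CPM, lay within the DMSO range. FGF18 averaged 132 CPM with dexamethasone and 71.5 with estradiol (adjusted p = 0.00175).

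Of 50 components of the TGF-beta, Nodal, Wnt and Notch pathways 33 were detected. The Notch receptors NOTCH1 (279 and 296 CPM), NOTCH2 (264 and 318) and NOTCH3 (250 and 290) and their ligands JAG1 (204 and 212) and JAG2 (251 and 221) were all above 200 CPM, and the Notch target HES1 was at 133 and 142. NOTCH4 lies in the chromosome 6 stretch and was listed at 0. WNT7A, a Wnt ligand of uterine epithelium, was at 63.6 and 68.8 CPM, while WNT4 and WNT5A, of uterine stroma among other places, had at most 0.243 CPM and 0 counts. LEFTY1, a Nodal antagonist, differed between the replicates, at 0.840 and 3.40 CPM. Of 35 receptors for peptide hormones, amines and lipids 20 were detected, such as the adiponectin receptors ADIPOR1 (166 and 188 CPM) and ADIPOR2 (225 and 209), the prolactin receptor PRLR (16.4 and 13.6) and the oxytocin receptor OXTR (3.41 and 2.82). FSHR, the follicle-stimulating hormone receptor, and RXFP1, the relaxin receptor, had 0 counts.

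Cell cycle genes were expressed throughout, with 32 of 32 detected. MKI67, the proliferation marker, was at 884 and 545 CPM, CCND1, cyclin D1, at 725 and 633, and TOP2A, a topoisomerase of dividing cells, at 633 and 547. The median fold between the replicates over genes of 10 CPM or more was 1.11, which MKI67 exceeded. CDKN2A, a cell cycle inhibitor often lost in tumours, was at 173 and 235 CPM, and RB1 at 14.9 and 10.5. The F test called 1 of 32, the inhibitor CDKN1A, at 33.1 and 36.8 CPM in DMSO, with an average of 63.3 CPM with both hormones (adjusted p = 0.00101), and another 5 had an unadjusted p under 0.05. The count was 3 in DESeq2 and 4 in edgeR with no filter on low counts. As 3.1% of those tested, 1 of 32 lies near the 4.44% of all tested genes, so nothing about the class is read from it. All 22 genes often altered in endometrial carcinoma were detected. They included ARID1A (144 and 114 CPM), a chromatin remodeller, CTNNB1 (561 and 626), which encodes beta-catenin, and the mismatch repair gene MSH6 (91.0 and 89.7). JAK1, a cytokine receptor kinase, was at 4.72 and 2.29 CPM. An RNA level says nothing of whether the product is mutated.

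Most members of the short lists of transport genes were detected, but wider classes by name held smaller shares. Of 378 solute carriers 213 (56.3%) were detected, and of 83 potassium channel subunits 24 (28.9%), beside 62.7% of all protein-coding genes. Of 16 glucose, lactate and amino acid transporters 12 were detected, with SLC7A5 (1321 and 1230 CPM) and its partner SLC3A2 (335 and 316), which carry large neutral amino acids, and the glucose carrier SLC2A1 (147 and 170). SLC7A5 averaged 2486 CPM with estradiol and 1386 with dexamethasone (adjusted p = 0.00588). Of 23 ion and water channels 17 were detected. SLC12A2, a sodium, potassium and chloride cotransporter, was at 103 and 98.6 CPM. Of 3 listed subunits of the epithelial sodium channel, SCNN1A was detected, whereas SCNN1B had 0 counts and SCNN1G had 0 and 0.0486 CPM. CFTR, the chloride channel, also had 0 counts.

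Some receptors of interferons and cytokines were detected, while the cytokines on the list were at or near 0. Of 27 interferon and inflammatory genes 12 (44.4%) were detected, including the receptors IL6ST (220 and 179 CPM), IFNAR1 (117 and 104) and IFNGR1 (29.1 and 32.6). IL6R, the interleukin 6 receptor, was not detected, at 0.420 and 0.778 CPM. Interferon-induced genes were low, with ISG15 at 1.10 and 2.09 CPM and MX1 at 1.36 in each library. IL6, CCL2, CCL20 and IFNG had 0 counts outside the chromosome 6 stretch, and TNF was listed at 0 within it. Of 20 antigen presentation genes 16 lie in that stretch, so the 5 detected there and elsewhere say little. Outside it, B2M, the light chain of HLA class I, was at 130 and 129 CPM, CD74, the invariant chain of class II, at 37.1 and 41.0, and CIITA, the class II master regulator, had 0 counts.

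Oncofetal and imprinted genes were expressed in part. Of 26 oncofetal and cancer-testis genes 10 were detected. PEG10, an imprinted gene of retrotransposon origin, was at 1724 and 1216 CPM, HMGA2, a fetal chromatin protein, at 111 and 91.4, and the RNA-binding protein IGF2BP2 at 110 and 92.3. MAGEA3 (56.9 and 62.6 CPM) and MAGEA6 (40.5 and 43.7) are near-identical copies, so the split between them is uncertain. PRAME, a tumour antigen, was at 24.3 and 26.0 CPM and TERT, the catalytic subunit of telomerase, at 1.94 and 1.75. The pluripotency genes NANOG and LIN28A had 0 counts, and SOX2 had 1 count in all. Of 20 imprinted genes 9 were detected, with GNAS at 950 and 1037 CPM and MEST at 182 and 196. MEG3, DLK1, PEG3 and ZIM2 had 0 counts. SNRPN was listed at 0 in all 8 libraries and overlaps SNURF, so nothing is read from it.

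The genes of highest level per kb of all exons were those of the cytoskeleton, glycolysis and translation: ACTB (2747 CPM per kb), GAPDH (2499), TMSB10 (2407), an actin-binding peptide, RPLP0 (1972) and the elongation factor EEF1A1 (1727). Their order depended on the length used. With the median transcript length, GAPDH (4345) and RPLP0 (3237) stood above ACTB (3018). RPLP1 (2717) and EEF1A1 (2579) then stood above TMSB10 (2407). The 10 genes with the most counts took 7.54% and 8.18% of each library, and the top 1000 took 49.1% and 50.9%. RNA45S5, the ribosomal RNA precursor, alone took 3.58% and 4.03%, although the libraries were made from mRNA. Cytosolic ribosomal protein genes took 5.29% and 6.54%. All 21 housekeeping genes were detected. The F test called 0 of them in edgeR, with 1 at an unadjusted p under 0.05. DESeq2 and limma-voom called 0, though 1 was called in edgeR with no filter on low counts. Beside 4.44% of all tested genes called in edgeR, 0 of 21 says little about these genes.

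Gene classes ranged from fully detected to fully undetected. All 37 complex I subunits, 75 of 77 mitochondrial ribosomal proteins, 35 of 39 proteasome subunits and 441 of 529 ZNF genes were detected. Of 398 olfactory receptors 0 were detected and 381 had 0 counts, and of 50 defensins and 17 type I interferons 0 were detected. Only 1 of 94 keratin-associated proteins (KRTAP2-3), 3 of 43 chemokines (CXCL16, CCL28 and CX3CL1) and 13 of 56 cytochromes P450 were. Outside the stretches at 0 on chromosomes 6 and 4, detected genes were 35 of 37 proteasome subunits, 75 of 76 mitochondrial ribosomal proteins and 13 of 55 cytochromes P450. By annotation, 11909 of 18998 protein-coding genes were detected, against 292 of 2935 long noncoding RNAs. Of 1902 microRNA loci and host genes 12 were detected, which in mRNA libraries is no measure of mature microRNAs. The antisense gene LRRC75A-AS1 was at 907 and 1226 CPM, and since the strand setting of the counting is not given, its reads and those of overlapping genes cannot be told apart.

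**Figure D5:**
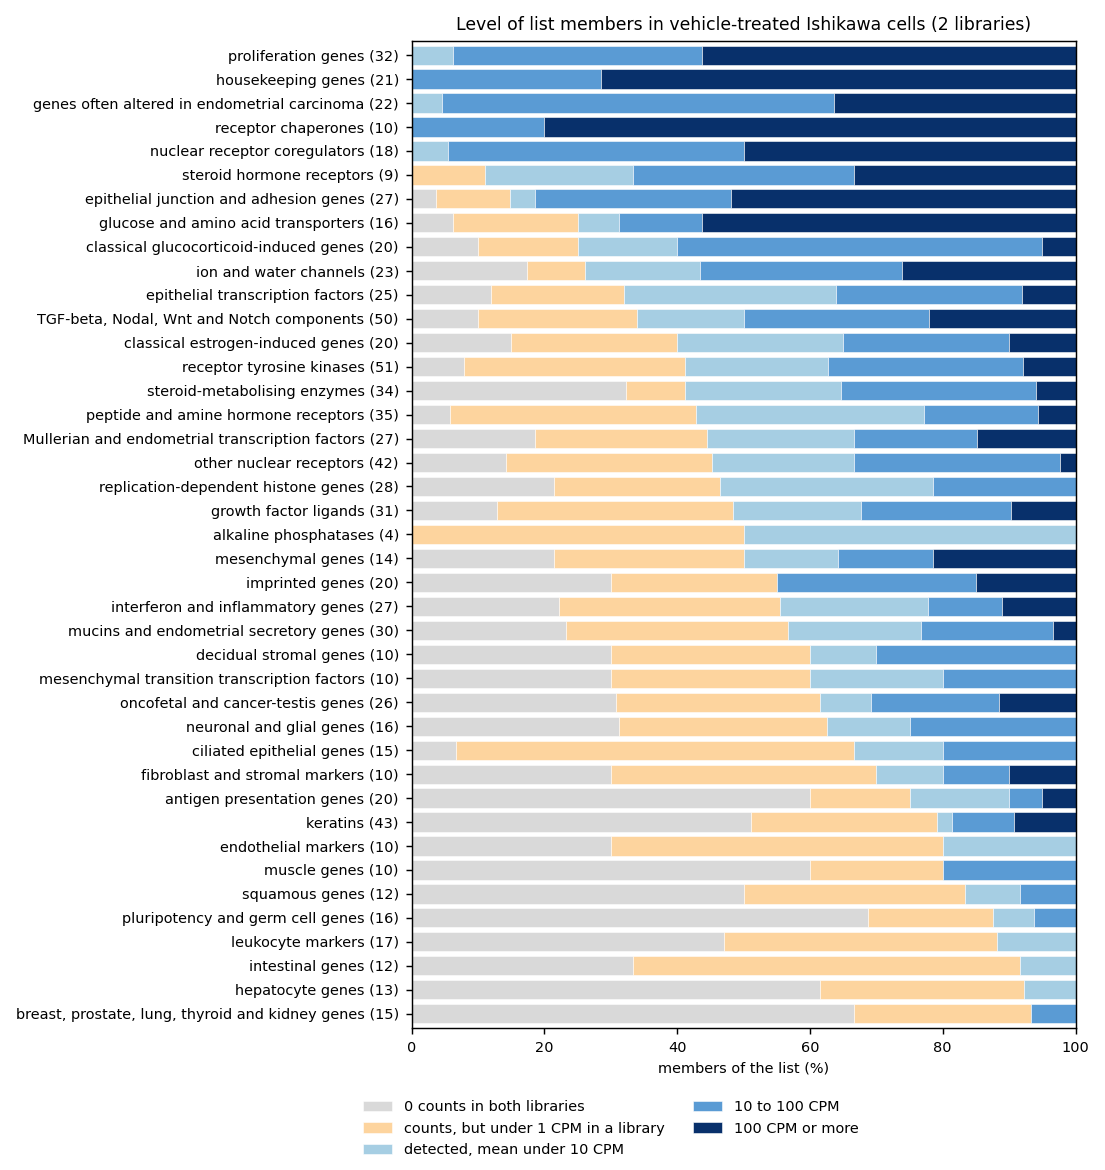
Percent of the members of each of 41 gene lists (x axis; number of members in brackets) in each band of level in the 2 DMSO libraries, from 0 counts (grey) to 100 CPM or more (dark blue). Proliferation, housekeeping and coregulator genes lie fully in the detected bands, while panels of hepatocytes, intestine and leukocytes are mostly grey or orange.

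The genes that differed most between the DMSO replicates included several with near copies or pseudogenes elsewhere in the genome. Among genes of 10 CPM or more, ZNF322 was at 7.19 CPM in replicate 1 and 46.4 in replicate 2, and the ribosomal protein genes RPL9 (240 and 531 CPM) and RPL12 (477 and 968) were also higher in replicate 2. In the other direction NPIPB5 was at 29.3 and 4.86 CPM, FOXO3B at 17.4 and 3.50, the ribosomal protein gene RPL39 at 165 and 50.2, and the kinesin CENPE at 147 and 64.7. The part of shared sequence in these differences was not tested.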

How the data were processed

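Stranded mRNA libraries of Ishikawa cells were sequenced, and the authors deposited raw counts per gene symbol. HISAT2 2.0.4, Subread, featureCounts 1.5.1, DESeq2 1.14.1 and build hg19 are named in the submitters' processing notes. Neither annotation nor strand setting is given in the sources used here.

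CPM used TMM library sizes (edgeR 4.0.16, limma 3.58.1, R 4.3.3). Exon lengths came from GENCODE gene models of another build, matched by symbol, for 12373 of 12540 detected genes. Promoters came from RefSeq (GRCh38.p14), also by symbol. Any difference from DMSO was tested with glmQLFit and glmQLFTest on 3 hormone coefficients over all 8 libraries, after filterByExpr. The test was tested on simulated data over 13907 genes with increases in estradiol alone, drawn with the spread estimated from these libraries. It recovered 98 of 100 genes raised 2-fold and 100 of 100 raised 4-fold. False calls were 19 among 217, a share above the adjusted p threshold of 0.05. DESeq2 1.42.0 and limma-voom were alternatives.

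Named genes are those with the highest level per kb, the list members with the most or 0 counts, all steroid receptors, and the genes differing most between DMSO replicates. Other list members were named where their list is described, and members of gene classes (KRTAP2-3, chemokines, collagens, HOX genes, LRRC75A-AS1) and FBN2 after their values were seen. The members and all lists were chosen with earlier results of these data known. Some list members are not reported or drawn here, but are included in the counts.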

Additional observations from a re-analysis of the deposited data

How the results depend on the processing

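The count of 12540 detected genes and most list counts stayed within 1.5 times at thresholds of 0.5 and 2 CPM, at 10 counts, under DESeq2 or no scaling and in each DMSO library. At 0.5 CPM, 8 ciliated genes and 4 leukocyte markers were detected. At 10 counts these were 8 and 4, and 2 genes of breast, prostate, lung, thyroid and kidney. At 2 CPM, 0 hepatocyte genes, 0 leukocyte markers, 1 endothelial marker, 1 pluripotency gene and 1 alkaline phosphatase were detected. Without the stretches at 0 on chromosomes 6 and 4, an alternative chosen after seeing the data, 2 antigen presentation genes were detected. Without ribosomal RNA genes the top 10, 100 and 1000 genes took 4.44%, 15.8% and 48.1% of counts, as means of both libraries. Median transcript lengths moved 20 of 34 levels per kb by more than the replicate SD.

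The F test called 884 genes with DESeq2, 612 with limma-voom and 1154 with no filter on low counts. Leaving out a library gave between 340 and 733, with 348 without estradiol replicate 1, 340 without estradiol replicate 2, 403 without combination replicate 1 and 408 without dexamethasone replicate 2. Of 86 called list members, 50 were called under all 12 alternatives. With the replicate number as a block, over the 7 libraries with a clear number, 991 genes were called, of which 594 were among the 630. The differences of replicate 1 minus replicate 2 were correlated between groups across 14201 genes. These correlations were 0.243 (DMSO and dexamethasone), 0.153 (DMSO and estradiol) and 0.0493 (dexamethasone and estradiol). The crossed pairing has the same correlation with the opposite sign, so same-numbered libraries were the closer match for each pair of groups taken as a whole. Single libraries were not correlated with each other. This is a hint from the data and not from the design, and the numbers were not taken as pairs in the main test. A gene with 0 counts may lie anywhere below the limit of 3 counts in a library.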

Other observations

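Genes of the extracellular matrix, which the lists covered only in part, were chosen after their values were seen and are given as values. Of 44 collagens 22 were detected. COL9A2 (474 and 503 CPM) and COL2A1 (170 and 180), chains of cartilage collagens, were at 171 and 34.4 CPM per kb. COL6A1 (445 and 485 CPM) and COL6A2 (259 and 279), chains of microfibrillar collagen VI, were detected, whereas COL6A3, the chain that completes its classical trimer, had 0 counts in both libraries. FBN2, a fibrillin of developing tissue, was at 1215 and 1544 CPM, among the genes with the most counts. Of 30 integrins 17 were detected, with ITGB1 at 975 and 895 CPM.

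Among the HOX clusters 23 of 39 genes were detected, at most 42.9 CPM on average. Members of the HOXB cluster, HOXB6 (43.9 and 42.0 CPM), HOXB7 (36.0 and 38.2), HOXB8 (27.8 and 30.7) and HOXB9 (25.8 and 26.4), were detected beside HOXA10, HOXD8 (26.2 and 24.8) and HOXD9 (33.5 and 42.2). HOXA9 had 1 count and HOXD10 was at 0.735 and 0.146 CPM, between detected neighbours.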
